A study of Mus musculus with 6 samples.

Results

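The 44 genes described here encode the machinery that copies DNA before a cell divides, and they were taken by name from the 32285 genes counted in single CD8 T cells of a mouse melanoma model. They comprise 4 genes of origin recognition and loading, the 6 subunits of the MCM2-7 helicase, 6 factors that activate the helicase, the licensing inhibitor Gmnn, 9 polymerase and primase subunits, 7 genes of the sliding clamp and its loader, 6 of lagging-strand processing and single-strand binding, and 5 of nucleotide supply. All 44 were found among the counted genes. In a dividing cell, the MCM2-7 ring is loaded on origins in G1 by ORC, CDC6 and CDT1, switched on at the start of S phase by CDC45 and the GINS complex, and followed by polymerases held on DNA by the PCNA clamp. Most of these genes are transcribed as cells pass from G1 into S under control of E2F factors, so that resting T cells hold little of them and activated T cells, which divide fast, hold much.

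Cells were sorted as CD8+ Tomato+ T cells from B16-OVA tumors, a melanoma line that expresses ovalbumin, and from the draining lymph node (LN). Control mice carried CD8-Cre and the Rosa26 Tomato reporter, and CD8-IFNγRKO mice carried the same alleles and a floxed IFNgR1, the receptor chain that binds IFNγ, which Cre deletes in CD8 T cells. Organs of 3 mice were pooled per genotype 12 days after tumor cells were given, and 1 library was made for each tissue and genotype, 4 in all, with TCR libraries for both tumors. No value ties a cell to a mouse, so that each group was 1 sample, no test between groups was possible, and every interval below covers counting error only.

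After filters on barcodes, 7103 control tumor, 8636 CD8-IFNγRKO tumor, 6641 control LN and 6731 CD8-IFNγRKO LN cells remained, with 59497796, 93995655, 29934686 and 28841136 unique molecular identifiers (UMIs, one per captured RNA molecule). The median per cell was 6308, 9402.5, 4051 and 3863 UMIs. Pairs of libraries shared 51 to 82 of the kept barcodes by sequence. Ifngr1 stood at 718 CPM (UMIs scaled to a library of 1000000) in control and 237 CPM in CD8-IFNγRKO tumor cells, and at 182 and 137 CPM in LN. These counts do not show whether the remaining transcripts carried the deletion. Cd8a stood at 738 to 1469 CPM, but kept cells had to hold a UMI of it. Summed melanoma markers stood at 3.71 and 2.47 CPM in the control and CD8-IFNγRKO tumor libraries, and summed macrophage markers at 20.4 and 13.5 CPM. The B cell gene Ighm stood at 7.13 and 16.6 CPM in the same tumor libraries and at 223 and 228 CPM in LN, and Cd4 at 4.22 and 5.37 CPM in these tumor libraries, with LN at 9.96 and 18.4 CPM. Without cells with 3 or more UMIs of melanoma, macrophage, dendritic, B or erythroid markers, the summed genotype ratio given next was 0.69 in tumors and -0.040 in LN.

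In tumors, every one of the 44 genes was higher in CD8-IFNγRKO than in control cells. Summed over all 44, the level was 2957 CPM in control tumor, 4765 CPM in CD8-IFNγRKO tumor, 1003 CPM in control LN and 946 CPM in CD8-IFNγRKO LN cells. The genotype difference of the sum, as a log2 ratio of CPM with 1 CPM added, was 0.69 in tumors (95% counting interval 0.68 to 0.70) and -0.08 in LN (-0.11 to -0.06). A ratio of at least 0.5 on the log2 scale was called, among genes with a mean of at least 5 CPM over both libraries. In tumors 38 of 44 members were called higher and 0 lower, where 7.45% of the 8834 genes were called higher and 5.09% lower. The median member differed by 0.73 and the median of all genes by 0.01 on the log2 scale. The 44 counting intervals all lay above 0. The share of all genes with such intervals was not counted.

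**Figure D1:**
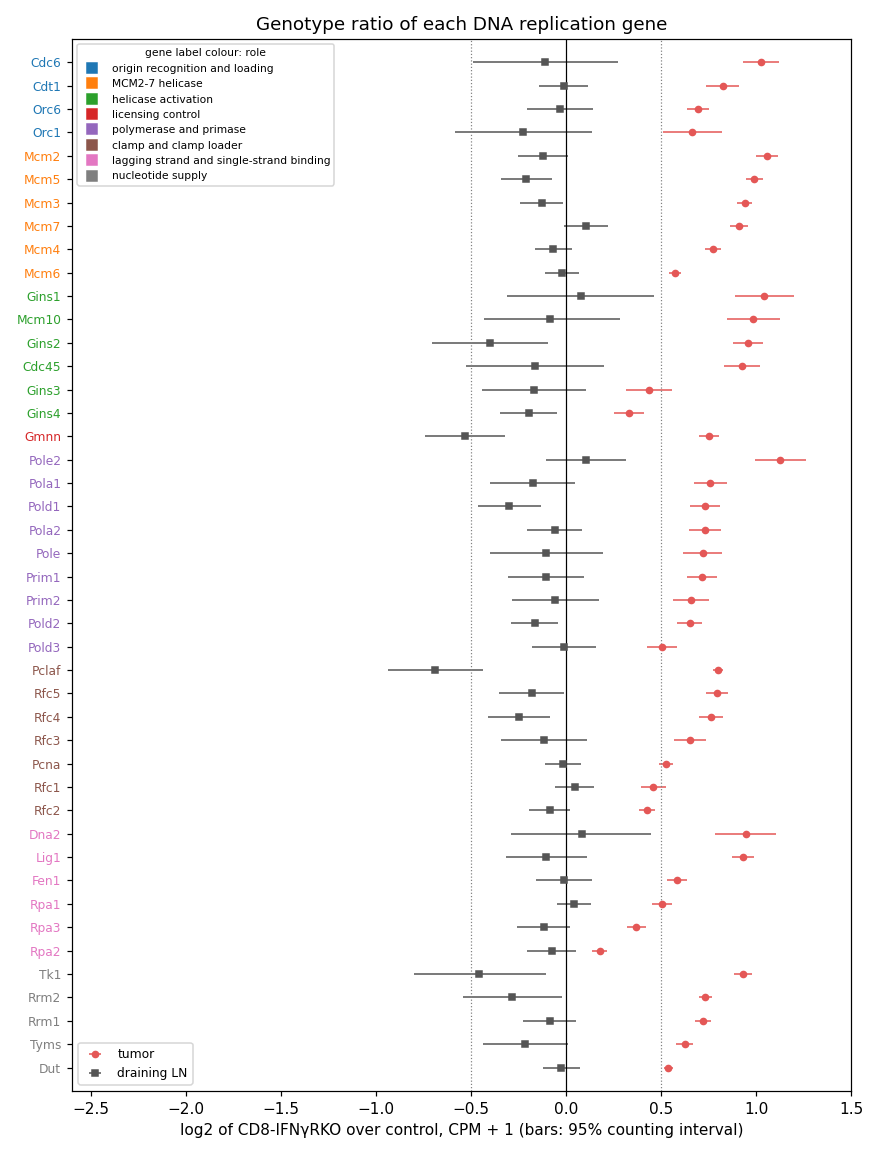
Log2 ratio of CD8-IFNγRKO over control CPM with 1 CPM added (x axis) for each of the 44 genes (y axis, label colour by role), with red circles for tumor, dark squares for LN, bars for 95% counting intervals and dotted lines at the call limit of 0.5. All tumor values lie right of 0, from 0.18 for Rpa2 to 1.13 for Pole2, and LN values lie between -0.69 and 0.10.

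Genes that mark and load origins were all called higher in tumors. Cdc6, the ATPase that brings the helicase to ORC, stood at 17.7 CPM in control and 37.0 CPM in CD8-IFNγRKO tumor cells, and at 1.5 and 1.32 CPM in LN. Its tumor ratio was 1.03 on the log2 scale (0.93 to 1.12). Both LN libraries thus lay far below both tumor libraries, and the LN values rest on 45 and 38 UMIs. Cdt1, the loading partner of CDC6, had another order. It stood at 22.3 and 40.2 CPM in tumors against 31.4 and 31.1 CPM in LN, so that control tumor cells were the lowest of the 4 libraries. Orc1 and Orc6, subunits of the origin recognition complex, differed between tumors by 0.66 and 0.69 on the log2 scale. Gmnn, which encodes geminin, the inhibitor of CDT1, stood at 61.4 and 104 CPM in tumors, and the log2 ratio was 0.75.

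All 6 helicase subunits were called higher in CD8-IFNγRKO tumor cells. Mcm2 stood at 53.1 CPM in control tumor, 111 CPM in CD8-IFNγRKO tumor, 32.2 CPM in control LN and 29.5 CPM in CD8-IFNγRKO LN cells. Its tumor ratio of 1.05 (1.00 to 1.11) was the highest of the ring, while Mcm6, at 208, 310, 71.3 and 70.2 CPM in the same order, had the lowest at 0.57 (0.54 to 0.60). The 6 proteins form a ring with 1 copy of each, but their transcripts did not differ between the tumors by the same amount, since the intervals of Mcm2 and Mcm6 lay apart. Mcm5, Mcm3, Mcm7 and Mcm4 fell between at 0.99, 0.94, 0.91 and 0.77. In LN the ratios of the 6 ranged from -0.21 for Mcm5 to 0.10 for Mcm7.

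The promoters of these genes are known for E2F sites, and a search for E2F-type words was made in RefSeq windows (GRCm38.p6) of 300 bases, 250 before and 50 after a start. The words were TTTGGCGC, TTTCCCGC, TTTGCCGC and TTTCGCGC on either strand, and words on opposite strands may overlap. Windows were given for 36 of the 44 genes, and 15 of the 36 (41.7%) held a word, against 704 of 27025 genes (2.60%) and 744 of 32851 windows (2.26%) in the whole table. The word TTTGAA of the CHR element, known from G2/M genes, was in 5 of 36 members (13.9%) and 20.2% of all genes. The whole table was not limited to genes expressed in these cells, and the shares were not matched for base composition. The stretches before the start of Mcm5, Mcm6 and Gins3 are shown because each lies ahead of the annotated gene and holds a word in that place. The Mcm5 stretch is chr8:75109334-75109393 (+ strand), that of Mcm6 is chr1:128359719-128359778 (- strand) and that of Gins3 is chr8:95633492-95633551 (+ strand), each written 5′ to 3′ along the gene with the E2F-type words in capitals. The CHR word in the Gins3 stretch is left in lower case.
Mcm5: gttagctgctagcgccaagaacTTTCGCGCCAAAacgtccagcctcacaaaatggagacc
Mcm6: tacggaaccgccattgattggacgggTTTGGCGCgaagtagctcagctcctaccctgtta
Gins3: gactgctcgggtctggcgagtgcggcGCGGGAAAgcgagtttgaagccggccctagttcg
In Mcm5 the words TTTCGCGC and GCGCCAAA, on opposite strands, overlap 153 and 149 bases before the start. In Mcm6 the word lies 47 bases before the start and in Gins3 41. Distances are to the start on which a window was set, which for Mcm5 lies within the annotated gene. A word is a match of letters and not a site of binding, and no binding was measured in these cells.

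Factors that turn the loaded ring into a moving helicase were less even. Gins1 stood at 5.61 CPM in control and 12.6 CPM in CD8-IFNγRKO tumors, with LN at 0.735 and 0.832 CPM, and its tumor ratio was 1.04. Mcm10, Gins2 and Cdc45 had tumor ratios of 0.98, 0.96 and 0.92. Gins3 and Gins4, which encode the remaining subunits of the same 4-protein GINS complex, had ratios of 0.43 (0.31 to 0.56) and 0.33 (0.25 to 0.41) and were not called. The GINS subunits thus fell in pairs, with intervals that did not meet.

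**Figure D2:**
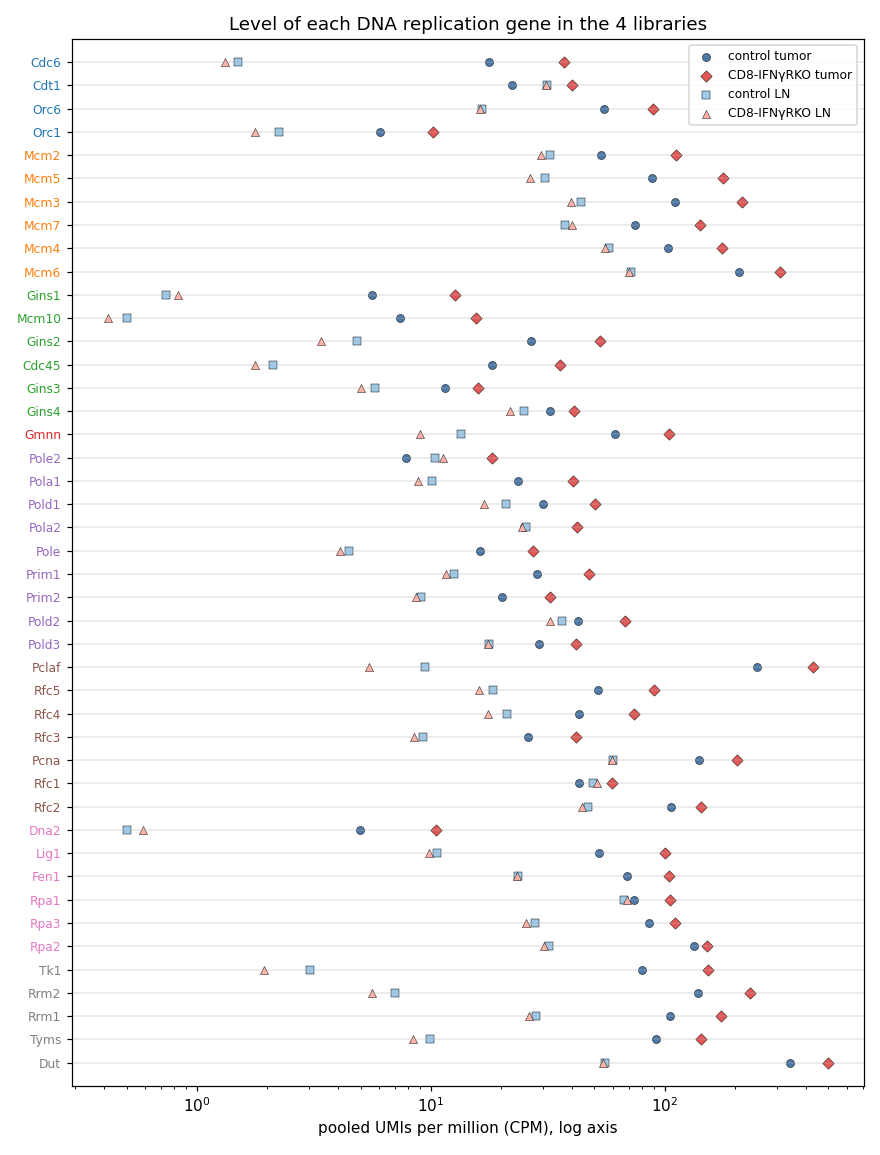
Level of each of the 44 genes (y axis, grouped by role) in the 4 libraries as pooled CPM (x axis, log axis), with circles for control tumor, diamonds for CD8-IFNγRKO tumor, squares for control LN and triangles for CD8-IFNγRKO LN. The diamond lies right of the circle for every gene, the LN symbols lie close to each other, and for Cdt1, Pole2 and Rfc1 the control tumor lies left of both LN libraries.

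All 9 polymerase and primase genes were called higher in CD8-IFNγRKO tumors, with log2 ratios from 0.50 for Pold3 to 1.13 for Pole2. Pole2, the second subunit of the leading-strand polymerase epsilon, stood at 7.82 CPM in control tumor, 18.2 CPM in CD8-IFNγRKO tumor, 10.4 CPM in control LN and 11.2 CPM in CD8-IFNγRKO LN cells. Control tumor was therefore the lowest library, as for Cdt1. Pole2 overlaps Klhdc1 in the RefSeq annotation, and other members, such as Pclaf and Tk1, also overlap a gene there. The sharing of reads between such genes was not tested. Pole, the catalytic subunit of the same enzyme, stood at 16.1, 27.2, 4.48 and 4.09 CPM, with both tumors above both LN libraries. Pola1, which starts each new strand together with the primase, had a tumor ratio of 0.76, and the primase subunits Prim1 and Prim2 had 0.72 and 0.66.

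In the clamp group, 5 of 7 genes were called. Pcna, the sliding clamp, stood at 141 CPM in control and 202 CPM in CD8-IFNγRKO tumors, with LN at 60.0 and 59.3 CPM, and its tumor ratio was 0.52 (0.49 to 0.56). Pclaf, which encodes a small protein that binds PCNA, stood at 247 CPM in control and 430 CPM in CD8-IFNγRKO tumors, with LN at 9.39 and 5.44 CPM. Its tumor ratio was 0.80, and it had the widest gap between tissues of all 44 genes. Among the loader subunits, Rfc5, Rfc4 and Rfc3 had tumor ratios of 0.79, 0.76 and 0.65 and were called, while Rfc1 and Rfc2 had 0.46 and 0.42 and were not. Rfc1, the large subunit of the loader, stood at 42.8, 59.2, 49.5 and 51.0 CPM in control tumor, CD8-IFNγRKO tumor, control LN and CD8-IFNγRKO LN cells.

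The smallest tumor difference of all members was that of Rpa2, a gene of single-strand binding. Rpa2 stood at 133 CPM in control and 151 CPM in CD8-IFNγRKO tumors, with LN at 32.0 and 30.3 CPM, and its tumor ratio was 0.18 (0.14 to 0.21). Rpa3 had 0.37 and Rpa1 had 0.50, so that 1 of the 3 RPA subunits was called. Dna2 and Lig1, the nuclease and the ligase that finish Okazaki fragments, had 0.94 and 0.93, and Fen1, the flap endonuclease of the same step, had 0.58.

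The 5 genes of nucleotide supply were all called. Tk1, which salvages thymidine, stood at 79.7 CPM in control tumor, 153 CPM in CD8-IFNγRKO tumor, 3.04 CPM in control LN and 1.94 CPM in CD8-IFNγRKO LN cells. Rrm2, the regulated subunit of ribonucleotide reductase, stood at 139, 231, 7.02 and 5.58 CPM. The tumor ratios were 0.93 for Tk1, 0.73 for Rrm2, 0.72 for Rrm1, 0.62 for Tyms, which makes thymidylate, and 0.54 for Dut, which removes dUTP. For Tk1 and Rrm2 both tumor libraries lay more than 10 times above either LN library.

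Lists of 42 other replication genes and 10 genes of the E2F pathway were set beside the members. In tumors 7.45% of all genes were called higher and 5.09% lower. Of the 41 other replication genes that reached the level limit, 24 were called higher and 1 lower, with a median of 0.56. Of the 10 E2F pathway genes, 3 were called higher and 0 lower, with a median of 0.32. Among the highest were Timeless of the fork protection complex at 1.11 and Dscc1 of an alternative clamp loader at 1.01. The lowest were Pold4, the smallest subunit of polymerase delta, at -0.66 with 106 and 67.1 CPM, Samhd1, which degrades dNTPs, at -0.47 with 258 and 186 CPM, and Rbl2, which encodes the pocket protein p130 of resting cells, at -0.32 with 84.2 and 67.4 CPM in control and CD8-IFNγRKO tumor cells. Pold4 therefore stood opposite to Pold1, Pold2 and Pold3 of the same enzyme, which had 0.73, 0.65 and 0.50.

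Between tissues, the 44 genes were mostly higher in tumors. In control cells 33 of the 40 members above the level limit were called higher in tumor than in LN and 0 lower. Of the 9029 genes, 27.4% were called higher and 25.2% lower. The median over all 44 members, also those below the limit, was 1.42 on the log2 scale, against 0.02 over the 9029 genes. In CD8-IFNγRKO cells 42 of 44 were called higher and 0 lower, against 29% (higher) and 27% (lower) of 9069 genes, with a median of 2.12. A gene can pass the limit, a mean of tumor and LN, through the tumor alone, and then cannot be called lower. Mcm10, at 15.5 CPM in CD8-IFNγRKO tumor and 0.416 CPM in LN, passed so. With a limit of 1 UMI over both libraries together, 37 of 44 in control and 42 of 44 in CD8-IFNγRKO cells were called higher. Of all genes, 19.6% and 20% were. The tissue comparisons share no library with each other but share their tumor and LN libraries with the genotype comparisons. Pclaf had the highest ratios, 4.58 in control and 6.06 in CD8-IFNγRKO cells, followed by Tk1 with 4.32 and 5.71 and Rrm2 with 4.12 and 5.14. At the other end, control tumor values were below LN for Cdt1 (-0.48), Pole2 (-0.37), Rfc1 (-0.20) and Pola2 (-0.02), of which the interval of Pola2, -0.14 to 0.10, included 0. In CD8-IFNγRKO cells the same genes had 0.36, 0.65, 0.21 and 0.77. The genes therefore ranged widely in how far LN cells held their transcripts. Among cells with 4000 to 8000 UMIs the summed ratio was 0.78 in control and 1.51 in CD8-IFNγRKO cells, against 1.56 and 2.33 over all cells.

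In LN the genotypes differed little. Of the 35 members above the level limit, 0 were called higher and 2 lower in CD8-IFNγRKO cells, against 0.276% and 0.46% of 8700 genes. The median of all 44 was -0.11, against a median of 0.03 and a lower quartile of -0.04 over the 8700 genes. Of the 44 values 38 lay below 0, and 12 intervals lay wholly below 0. The share of all genes with such values or intervals was not counted. The called genes were Pclaf at -0.69 (-0.94 to -0.44) and Gmnn at -0.53 (-0.74 to -0.32). Of the 281 Pclaf UMIs in control LN, 106 came from 7 cells that also held transcripts of both G1/S and G2/M genes, and in CD8-IFNγRKO LN 4 such cells gave 16 of 157. Most Gmnn UMIs, 335 of 404 in control and 220 of 260 in CD8-IFNγRKO LN, came from cells below the limit of 2 such UMIs for either kind of gene. Control LN also had 19 cells with at least 16000 UMIs, whose summed level was 5693 CPM, and CD8-IFNγRKO LN had 5, at 4530 CPM. The sign of the summed LN ratio was not the same at all depths. It was -0.03 (-0.30 to 0.23) in cells with fewer than 2000 UMIs, 0.02 (-0.02 to 0.07) from 2000 to 4000, -0.0049 (-0.04 to 0.03) from 4000 to 8000 and 0.07 (0.01 to 0.13) from 8000 to 16000 UMIs.

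To see at equal depth how UMIs of the members were spread over cells, cells were thinned to 1600 UMIs each. This left out 701 control and 278 CD8-IFNγRKO tumor cells and 237 and 41 LN cells. Thinning removes differences in total UMIs, so that it cannot show whether a cell held more transcripts. Before thinning, the median cell held 7 UMIs of the members in control tumor, 29 in CD8-IFNγRKO tumor and 3 in each LN library, at unequal depth. Summed over the 44 genes, a thinned cell held 3.66 ± 4.19 UMIs (mean ± SD over 6402 cells) in control tumor, 6.47 ± 5.08 (8358 cells) in CD8-IFNγRKO tumor, 1.47 ± 1.51 (6404 cells) in control LN and 1.44 ± 1.40 (6690 cells) in CD8-IFNγRKO LN. Cells with 10 or more of these UMIs made up 10.6% of control tumor (Clopper-Pearson 95% interval 9.86 to 11.4), 26.8% of CD8-IFNγRKO tumor (25.9 to 27.8), 0.39% of control LN and 0.254% of CD8-IFNγRKO LN cells. Without thinning these shares were 41.1%, 69.2%, 4.76% and 3.45%. Pclaf had a UMI in 15.6% of thinned control and 32.9% of CD8-IFNγRKO tumor cells, against 0.281% and 0.194% in LN, and without thinning in 27.7% and 58.4% of tumor cells. Cells of a type that should lack Pclaf were not set apart in the tumor libraries, so that the part of free RNA in the tumor shares was not measured.

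Cells were then placed in ranges by genes that are not members, 10 of G1/S such as Ccne1, Ccne2 and Dtl and 16 of G2/M such as Ccnb1, Cdc20 and Plk1, with 2 or more UMIs of a list as the limit. These are ranges and not cell types. E2f1 was in both the G1/S list and the E2F pathway list. G1/S genes were at 1 or 2 UMIs, next to the limit, in 21.4% of control and 36.4% of CD8-IFNγRKO tumor cells, and G2/M genes in 22.3% and 28.6%. Tumor cells with neither list made up 73.7% of control (72.6 to 74.8) and 50.9% of CD8-IFNγRKO cells (49.8 to 51.9). Cells with G1/S genes only made up 3.12% and 7.91%, cells with both 3.70% and 9.27%, and cells with G2/M genes only 19.4% and 32.0%. In LN, 1.47% of control and 1.45% of CD8-IFNγRKO cells passed either limit. Without thinning, 52.2% of control and 76.9% of CD8-IFNγRKO tumor cells and 7.89% and 6.82% of LN cells did. CD8-IFNγRKO tumors thus had a higher share in all 3 ranges with cycle transcripts, and the LN shares thinned to 1600 UMIs did not differ beyond counting error. Thinned to 3000 UMIs, the LN shares were 4.06% (3.55 to 4.61) in control and 3.22% (2.77 to 3.73) in CD8-IFNγRKO cells.

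**Figure D3:**
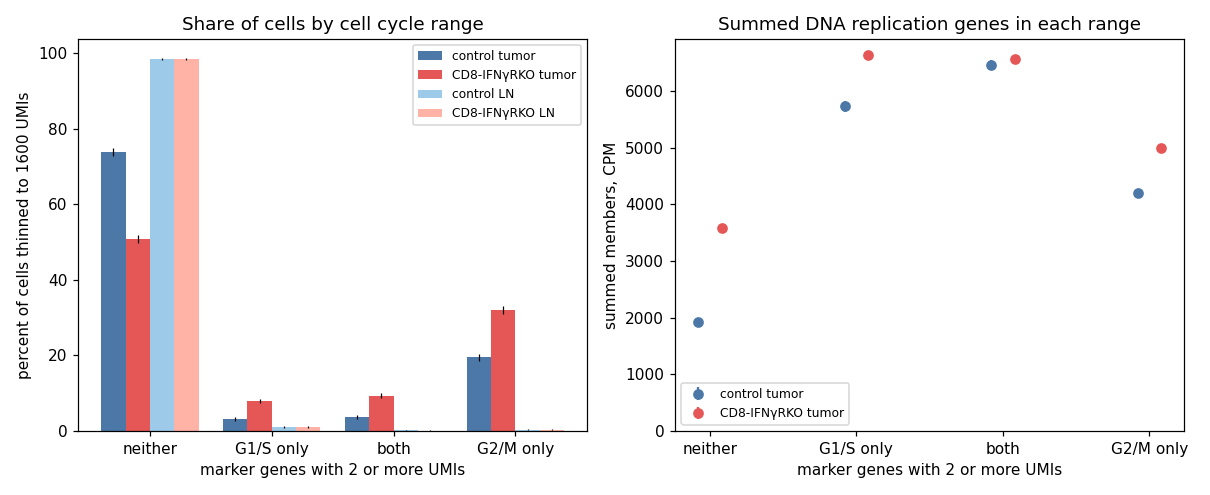
Left, percent of cells thinned to 1600 UMIs (y axis) in each range by G1/S and G2/M genes (x axis) for the 4 libraries, with 95% Clopper-Pearson intervals. Right, summed level of the 44 genes in CPM (y axis) in the same ranges for the tumor libraries, from all UMIs of the cells. The 95% Poisson intervals are mostly smaller than the points. The genotypes are closest in cells with both lists, at 6451 and 6567 CPM, and farthest on the log2 scale in cells with neither, at 1918 and 3585 CPM.

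Within ranges the genotype difference was uneven. In cells with both lists, the summed level was 6451 CPM in control and 6567 CPM in CD8-IFNγRKO tumor cells, a log2 ratio of 0.03 (0.00 to 0.05). It was 5731 and 6628 CPM in cells with G1/S genes only (log2 0.21) and 4195 and 4990 CPM in cells with G2/M genes only (log2 0.25). In cells with neither list it was 1918 and 3585 CPM (log2 0.90, 0.89 to 0.91). By gene, 40 of the 44 reached a log2 of 0.5 in cells with neither list, 1 in cells with G1/S genes only, 0 in cells with both and 5 in cells with G2/M genes only, where 8.84%, 6.02%, 3.99% and 2.8% of all genes did. The single gene in the G1/S range was Mcm10, at 0.66 (0.19 to 1.16). Those in the G2/M range were Pole2, Gins1, Mcm2, Cdt1 and Gins2, at 0.77, 0.73, 0.63, 0.58 and 0.56. Their intervals were 0.54 to 1.00, 0.46 to 1.00, 0.53 to 0.73, 0.44 to 0.73 and 0.42 to 0.69. These genes are named because they were few, and the intervals of Mcm10, Gins1, Cdt1 and Gins2 reached below 0.5. Ranges were set on thinned counts, but these levels used all UMIs of the cells. Cells with neither list had median depths of 6094 and 7379 UMIs and include those with 1 UMI of a list. They also include cells that passed a limit when not thinned. Without thinning, 47.8% of control and 23.1% of CD8-IFNγRKO tumor cells passed neither limit, against 73.7% and 50.9% with it. The part of such cells in the ratio of 0.90 was not tested. With a limit of 1 UMI, the ratio in cells with G1/S genes only was 0.61.

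The genes also differed in the range where they were highest. In tumors the helicase subunits were highest in cells with G1/S genes only. Mcm6 stood at 177, 414, 327 and 226 CPM in control cells with neither list, G1/S only, both and G2/M only, and at 299, 465, 349 and 270 CPM in CD8-IFNγRKO cells. In CD8-IFNγRKO cells its level in the G2/M range was thus no higher than in cells with neither list, as for Mcm2 with 101 and 99.1 CPM. Pclaf stood at 78.2, 422, 764 and 497 CPM in control and 206, 512, 722 and 560 CPM in CD8-IFNγRKO cells, highest in cells with both lists and higher in the G2/M than in the G1/S range. Rrm2 had 46.1, 237, 479 and 264 CPM in control and 107, 311, 420 and 284 CPM in CD8-IFNγRKO cells. As a log2 ratio of the G1/S to the G2/M range, Cdc6 had 1.06 in control and 1.04 in CD8-IFNγRKO tumors, Mcm2 1.10 and 0.86, Pcna 0.60 and 0.55, Rrm1 0.16 and 0.07, Rrm2 -0.15 and 0.13, and Pclaf -0.24 and -0.13. Over both tumors, the 6 helicase subunits had ratios from 0.63 to 1.10, the 4 loading genes from 0.25 to 1.10 and the 5 nucleotide supply genes from -0.15 to 0.41.

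**Figure D4:**
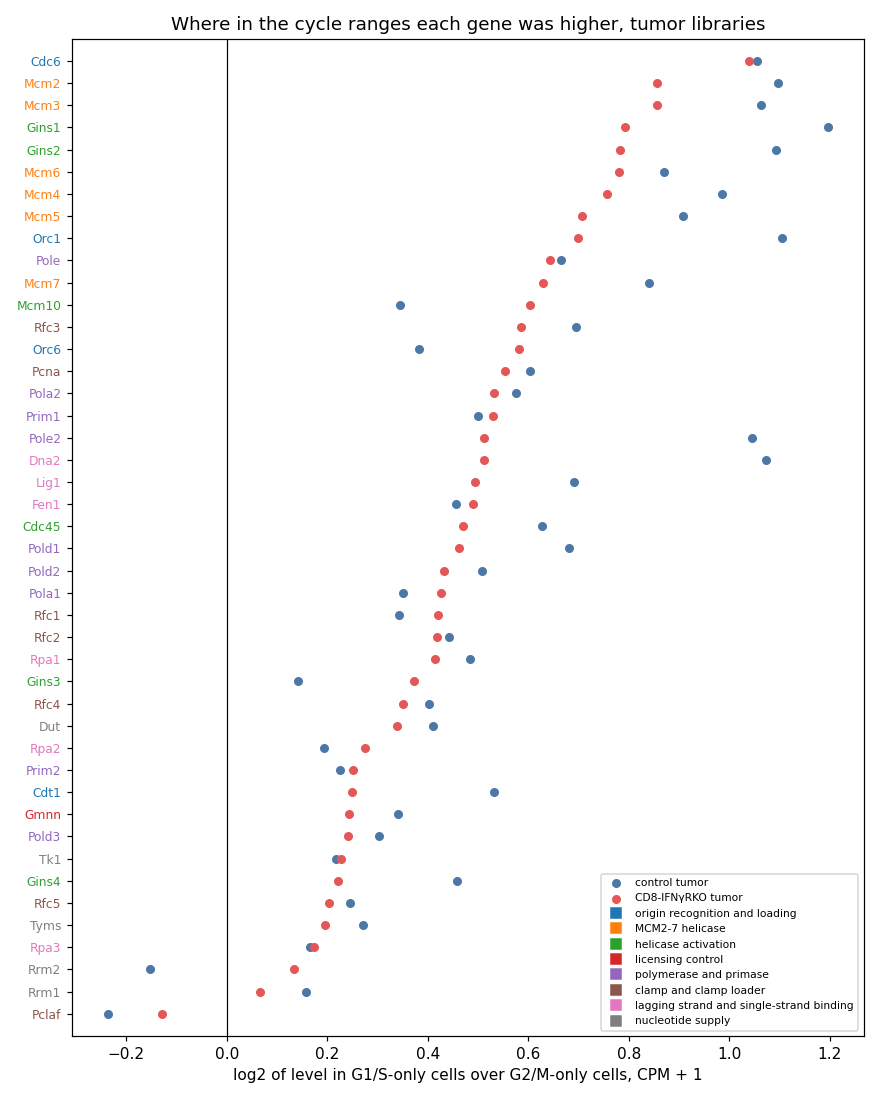
Log2 ratio of the level in cells with G1/S genes only over that in cells with G2/M genes only (x axis, CPM with 1 CPM added) for each of the 44 genes (y axis, sorted by the CD8-IFNγRKO value, label colour by role), in control (blue) and CD8-IFNγRKO (red) tumors. Cdc6, Mcm2 and Mcm3 lie at the G1/S end and Pclaf, Rrm1 and Rrm2 at the other end, with Pclaf below 0 in both tumors.

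The tumor difference was also read by Tcf7, a factor of stem-like and resting T cells, and Havcr2, which encodes TIM-3 of terminally exhausted cells. Thinned cells with a Tcf7 UMI numbered 197 in control and 444 in CD8-IFNγRKO tumors, and their summed level was 1562 and 2149 CPM (log2 0.46, 0.38 to 0.54). Of these, 6.09% (3.19 to 10.4) and 14.4% (11.3 to 18.0) were in a range with cycle transcripts. The 59 and 93 cells with both Tcf7 and Pdcd1 UMIs stood at 2367 and 2381 CPM (log2 0.01, -0.11 to 0.13). Of them 7 and 22 cells, or 11.9% (4.91 to 22.9) and 23.7% (15.5 to 33.6), were in a range with cycle transcripts. Cells with Havcr2 and no Tcf7 stood at 2782 and 4586 CPM (log2 0.72), and cells with neither at 3104 and 4927 CPM (log2 0.67). The gate on Tcf7 thus had the lowest level in both tumors, and its cells were shallower, with median depths of 3761 and 3870 UMIs against 7347 and 10418 in cells with Havcr2. All tumor cells with 2000 to 4000 UMIs stood at 1373 and 2262 CPM, and the part of depth was not tested. A gene was missed in many thinned cells, so that the cells without a UMI of it include cells that express it.

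TCR sequences gave a further split that does not use these genes. Cells of a clone had the same V gene, J gene and CDR3 nucleotides in alpha and beta chain, and 4284 control and 5937 CD8-IFNγRKO tumor cells had both. In the 182 control and 364 CD8-IFNγRKO cells whose clone was seen once, the 44 genes summed to 2205 CPM (2110 to 2304) and 1974 CPM (1909 to 2041), a log2 ratio of -0.16 (-0.24 to -0.08). In clones of 20 or more cells they summed to 2941 and 4931 CPM, a log2 ratio of 0.75 (0.73 to 0.76), over 3741 and 5360 cells. The genotype difference therefore had the opposite sign in cells of clones seen once. Those cells had 354 and 473 CPM of Tcf7, against 4.19 and 4.09 CPM in the large clones, and median depths of 4041 and 3997.5 UMIs against 6357 and 10511.5. The part of Tcf7 and of depth in this was not tested. By gene, large clones stood above single cells for 44 of 44 genes in CD8-IFNγRKO tumors, 37 of them by a log2 of at least 0.5, where 25.3% of all genes were higher and 18.4% lower by as much. In control tumors they stood above single cells for 35 of 44, with 13 higher and 2 lower by at least 0.5, where 20.1% of all genes were higher and 15.8% lower. Mcm2 had 1.16 (0.86 to 1.47) in CD8-IFNγRKO and -0.15 (-0.54 to 0.27) in control tumors, and Pclaf 1.68 and 0.98.

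Clones of 20 or more cells were also set beside each other. In control tumors 22 such clones ranged from 721 to 5924 CPM with a median of 2643, and in CD8-IFNγRKO tumors 25 clones ranged from 3135 to 6133 CPM with a median of 4891. Of the control clones, 16 lay below the lowest CD8-IFNγRKO clone, and 1 lay above the CD8-IFNγRKO median. The largest clones, of 1104 and 1463 cells, stood at 2396 and 4891 CPM. Clones of 1 tumor library share its 3 mice and its processing, and are not replicates of a genotype.

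**Figure D5:**
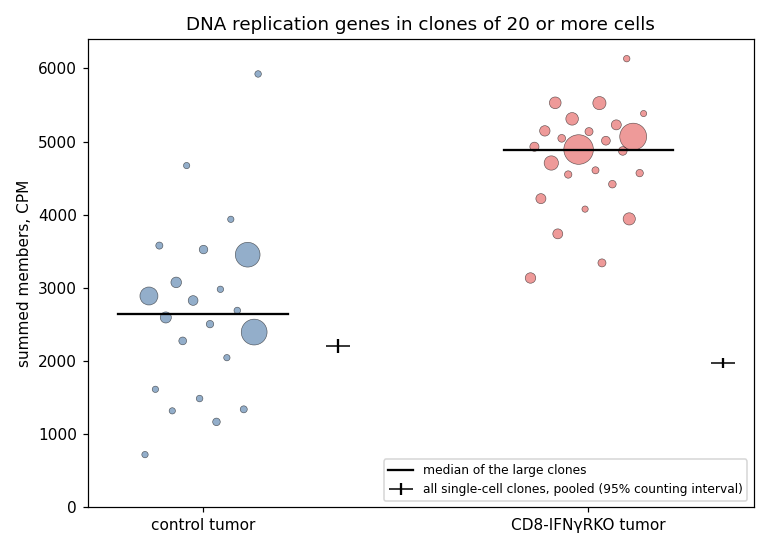
Summed level of the 44 genes in CPM (y axis) in each TCR clone of 20 or more cells in control and CD8-IFNγRKO tumors (x axis), with point area growing with the number of cells, a line at the median and, to the right of each, all clones of 1 cell pooled with their 95% Poisson interval. The 22 control clones spread from 721 to 5924 CPM, the 25 CD8-IFNγRKO clones from 3135 to 6133 CPM, and the clones of 1 cell lie at 2205 and 1974 CPM.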

How the data were processed

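Reads of 5′ single-cell and TCR libraries were mapped by the authors with Cell Ranger to mm10, per the submitters' processing notes, and deposited as raw UMI counts per gene and barcode and as filtered TCR contigs with UMI counts. A barcode was kept if it had between 200 and 6000 genes, mitochondrial UMIs of 3% or less, no single gene beyond 20% of its UMIs, and Cd2, Cd8a and Cd8b1 all detected. Doublets were not called and remain.

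For each library the UMIs of a gene were summed over cells and scaled to CPM. Ratios were taken on the log2 scale after adding 1 CPM. The 95% intervals were exact (levels by Poisson, ratios by conditional binomial and shares by Clopper-Pearson limits) and cover counting error only. The code ran in Python 3.11.15 with scipy 1.17.1, numpy 2.4.6, pandas 2.3.3 and matplotlib 3.10.9, and was tested on simulated data. With 1 library per group there was no test. Thinning drew 1600 UMIs per cell without replacement. Ranges and the Tcf7 and Havcr2 gates were set on thinned counts, and levels within them used all UMIs of those cells. A cell's clone was read from the productive alpha and beta contig with most UMIs. The members and the gene lists were chosen with earlier results of these data known. All 44 members are reported, with the 3 highest and 3 lowest tumor ratios of the other replication and E2F lists, of which 1 is not reported here. The depth, library size, cell filter, pseudocount, limits and clone rule were each varied.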

Additional observations from a re-analysis of the deposited data

Results flagged for a closer look

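Over all kept cells the genotype difference had opposite signs in the tissues, but the LN sign did not hold at all depths. For the summed genes the log2 ratio was 0.69 in tumors and -0.08 in LN, a gap of 0.77. The LN ratio was 0.07 (0.01 to 0.13) in cells with 8000 to 16000 UMIs, and thinned to 1600 UMIs its interval, -0.076 to 0.0058, included 0. For 12 of the 44 genes the interval lay above 0 in tumors and below 0 in LN, and the share of all genes with such intervals was not counted. The largest LN differences among the 12 genes were those of Pclaf, Gmnn and Tk1, with gaps of 1.49, 1.28 and 1.39 on the log2 scale. With 1 library per group the gaps were not tested. In LN, Pclaf rests on 281 and 157 UMIs, Gmnn on 404 and 260, and Tk1 on 91 and 56.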

How the results depend on the processing

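No paired analysis was possible because each group is 1 library, and for the same reason no replicate could be left out. The 103 values recomputed under an alternative include counts of called members, which cannot change sign and of which many stayed at 0. None of the ratios or share gaps changed sign (the LN ratio did in bins of depth). Of the 103 values, 57 stayed within the counting interval or 1.5 times the count, and 46 did not. The cause of each shift was not tested. The summed ratios are given in the order tumor genotype, LN genotype, control tumor to LN and CD8-IFNγRKO tumor to LN, on the log2 scale. Thinned to 1600 UMIs they were 0.82, -0.035, 1.31 and 2.17, as means over cells of CPM per cell 0.80, -0.032, 1.34 and 2.17, in cells with 4000 to 8000 UMIs 0.73, -0.0049, 0.78 and 1.51, and without the 8% of cells with most UMIs 0.80, -0.0067, 1.59 and 2.40. Without cells with 3 or more UMIs of other cell type markers, which removed 11.4% and 9.82% of control and CD8-IFNγRKO LN cells, the last 3 were -0.040, 1.65 and 2.37. With library sizes that left out TCR, heat shock, ribosomal and mitochondrial genes the last 2 were 1.30 and 2.09. With these sizes 2 of 42 members were called lower in control tumor than in LN, where 37.2% of all genes were. With all deposited barcodes the control tumor to LN ratio was 1.59. With these barcodes 1 of 34 members was called lower in LN by genotype, where 0.448% of all genes were.

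The numbers of genes called depended on the limits. Among genes with a mean of at least 50 CPM, 21 of 25 members were called higher by genotype in tumors (6.86% of all genes), 0 of 6 lower in LN (0.26%), 14 of 15 higher in control tumor than in LN (33.6%) and 22 of 23 in CD8-IFNγRKO tumor than in LN (36.1%). With 10 CPM added, 0 members were called lower in LN by genotype (0.138% of all genes). With a limit of 1 on the log2 scale, 4 of 44 were called higher in tumors (0.792% of all genes) and 0 of 35 lower in LN (0.0345%).

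In ranges, a limit of 1 UMI gave tumor genotype ratios of 0.82 in cells with neither list, 0.61 with G1/S genes only, 0.19 with both and 0.46 with G2/M genes only. A limit of 3 UMIs gave 0.0049 with G1/S genes only, 0.052 with both and 0.19 with G2/M genes only, and a gap between genotypes in the share of cells in any range of 16.1 percentage points, against 22.9 at the limit of 2 UMIs. Thinning to 3000 UMIs gave 0.77, 0.29, 0.088 and 0.38, and a gap of 26.8 percentage points. With clones defined by the TCR beta chain alone, the ratio of large clones to clones of 1 cell was 0.51 in control and 1.41 in CD8-IFNγRKO tumors, against 0.42 and 1.32 with both chains. Low levels limit the LN values most, where 9 of 44 genes had a mean below 5 CPM.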

Other observations

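In tumors the summed level did not follow depth in one direction. Cells with fewer than 2000 UMIs stood at 2381 CPM in control and 4147 CPM in CD8-IFNγRKO tumors, above cells with 2000 to 4000 UMIs at 1373 and 2262 CPM, while cells with at least 16000 UMIs stood at 3970 and 5519 CPM. The shallowest cells made up 11.3% and 7.72% of the kept tumor cells. In LN the cells with fewer than 2000 UMIs stood at 1020 and 999 CPM and those with 2000 to 4000 at 849 and 863 CPM. The tumor genotype ratio was 0.80, 0.72, 0.73, 0.56 and 0.48 on the log2 scale in the 5 bins of depth, from the shallowest to the deepest. Its interval lay above 0 in each.

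Rrm2b, the ribonucleotide reductase subunit of resting cells, was chosen here after its values were seen. It stood at 12.6 and 11.4 CPM in control and CD8-IFNγRKO tumors and at 14.1 and 14.3 CPM in LN. The tumor log2 ratio was -0.13, against 0.73 for Rrm2. It lay between the quartiles of all genes, -0.16 and 0.21.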
